A study of Mus musculus with 6 samples.

Results

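The genes described here encode the machinery that copies DNA in S phase, a fixed list of 39 genes out of the 21911 protein-coding genes on chromosomes 1 to 19, X and Y in the GENCODE M21 annotation. They were examined for Gli3 binding in the cerebral cortex of wild-type mouse embryos at embryonic day 15 (E15). Chromatin immunoprecipitation followed by sequencing (ChIP-seq) was performed with a Gli3 antibody, with 3 ChIP libraries and 3 control libraries of input DNA, made from sheared chromatin without the antibody step. No library carried a mutation or a treatment. The whole dissected cortex was used, so that dividing progenitors and postmitotic neurons contributed together, and a list of positions cannot show which of these cells a site came from. The authors joined the ChIP libraries into a single list of 4114 binding sites, each with a chromosome, a start and an end in mm10, and no height, score or p-value. There is therefore no value per library and no error between embryos, and read depth is unknown. Of the sites, 4099 were on the chromosomes named above and 15 on scaffolds. Whether it is the same version of the list that the study analyzed is not known, and every count and distance given here, including the absence of a site, holds for the deposited list.

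Gli3 is a transcription factor of the Hedgehog pathway, and in the cortex it acts largely as a repressor when Sonic Hedgehog is absent. Replication begins when the origin recognition complex, Cdc6 and Cdt1 load the hexameric MCM helicase onto DNA. Cdc45, the GINS complex and Mcm10 then switch the helicase on, primase and the polymerases copy both strands, and the clamp Pcna with its RFC loader holds the polymerases in place. Many of these genes are transcribed at the start of S phase by E2F factors, which bind words such as TTTCCCGC and TTTGGCGC near the start site. Cortical progenitors divide repeatedly at this age, and their cell cycle is one of the processes that Hedgehog signaling is known to affect.

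A gene was counted as having a Gli3 site when the midpoint of a site lay within 2 kb of its gene-level transcription start site (TSS), on either side, and separately within 50 kb. The list was fixed by gene names, but it was drawn up with earlier results of these data known, and it leaves out some subunits of the same complexes, such as *Gins2*. Of the 39 genes, 5 had a site within 2 kb (12.8%, 95% Wilson interval 5.6 to 26.7%), compared with 6.88% of all protein-coding genes. These were the helicase subunits *Mcm4*, *Mcm6* and *Mcm7*, the helicase-activating factor *Mcm10*, and *Pole*, the catalytic subunit of the leading-strand polymerase. Within 50 kb, 11 of the 39 had a site (28.2%, interval 16.5 to 43.8%) against 23.4% of all protein-coding genes. Both intervals include the share of all genes. They cover counting error over genes only, and no test of the list was made. *Gli1* and *Ptch1*, which are targets of Hedgehog signaling, had 2 and 7 sites within 50 kb of the TSS in the same list.

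Promoters of 4 genes are shown first, because the words they hold recur in the results. Each line gives the 250 bases immediately upstream of the gene-level TSS, read 5′ to 3′ on the strand of the gene from mm10. Capitals mark E2F words (TTTCCCGC, TTTCGCGC, TTTGCCGC or TTTGGCGC), CCAAT boxes (CCAAT) and SP boxes (GGGCGG), on either strand, so that a box on the other strand reads ATTGG. Where words overlap, the capitals run on.
Mcm4, chr16:15637401-15637650, minus strand: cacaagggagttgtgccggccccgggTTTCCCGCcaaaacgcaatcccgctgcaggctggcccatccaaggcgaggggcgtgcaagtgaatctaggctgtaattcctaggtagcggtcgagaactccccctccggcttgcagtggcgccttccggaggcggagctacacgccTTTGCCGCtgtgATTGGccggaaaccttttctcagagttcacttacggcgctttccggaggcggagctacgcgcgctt
Mcm6, chr1:128359665-128359914, minus strand: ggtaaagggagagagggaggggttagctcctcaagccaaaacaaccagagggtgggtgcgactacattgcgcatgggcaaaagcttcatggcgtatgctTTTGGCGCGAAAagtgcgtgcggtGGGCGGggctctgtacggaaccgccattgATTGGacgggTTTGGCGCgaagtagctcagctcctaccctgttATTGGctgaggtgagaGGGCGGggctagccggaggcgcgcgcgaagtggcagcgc
Mcm10, chr2:5012792-5013041, minus strand: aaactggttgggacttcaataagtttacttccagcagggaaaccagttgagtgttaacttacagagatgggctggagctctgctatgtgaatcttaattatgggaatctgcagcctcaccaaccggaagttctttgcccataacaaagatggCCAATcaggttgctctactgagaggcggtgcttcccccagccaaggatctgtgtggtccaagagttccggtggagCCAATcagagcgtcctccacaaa
Mcm5, chr8:75109319-75109568, plus strand, shown as a helicase subunit with E2F words and no site nearby: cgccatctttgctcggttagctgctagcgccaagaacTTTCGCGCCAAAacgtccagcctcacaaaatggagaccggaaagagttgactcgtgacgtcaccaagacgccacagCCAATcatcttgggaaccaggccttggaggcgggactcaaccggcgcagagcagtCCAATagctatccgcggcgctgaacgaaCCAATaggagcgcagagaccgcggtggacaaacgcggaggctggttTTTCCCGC

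The MCM helicase is a ring of 6 different subunits, Mcm2 to Mcm7. Of its genes, 3 had a Gli3 site over the TSS (50%, interval 18.8 to 81.2%), compared with 6.21% of all protein-coding genes. *Mcm2* had a site within 50 kb. With 6 genes, the subgroup is small, and it was not tested. *Mcm4* (ENSMUSG00000022673.5) is transcribed from the minus strand of chromosome 16 (15623897 to 15637400). Its site was 2498 bp long, from 15635282 to 15637779, and reached from position -379 to position 2118 bp relative to the TSS, where negative values are upstream. The midpoint was 870 bp downstream, in an intron of *Mcm4*. The TSS of *Prkdc*, which encodes the catalytic subunit of the DNA repair kinase DNA-PK, lies on the other strand at position -466 bp, just outside the site.

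*Mcm6* (ENSMUSG00000026355.11) is a minus-strand gene of chromosome 1 (128331590 to 128359664), and its promoter site was 1886 bp long, from 128358457 to 128360342. The midpoint was 265 bp downstream of the TSS in an intron, and no other protein-coding TSS lay within 2 kb of it. *Mcm6* also had the most sites within 50 kb of any of the 39 genes, with 3. The other two were in an intron of *Lct*, the lactase gene, 42.4 kb downstream, and in an intron of *Dars*, an aminoacyl-tRNA synthetase gene, 45.4 kb upstream.

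*Mcm7* (ENSMUSG00000029730.16) is a minus-strand gene of chromosome 5 (138164583 to 138172422). Its site was 2687 bp long, from 138170423 to 138173109, with the midpoint 656 bp downstream of the gene-level TSS in a UTR of *Mcm7*. The same site covered the TSS of *Ap4m1*, an adaptor subunit of vesicle transport, which starts on the other strand 420 bp inside *Mcm7*. The midpoint was closer to the start of *Ap4m1*, at 236 bp, than to that of *Mcm7*. Other *Mcm7* transcripts start 604 and 607 bp downstream of the gene-level TSS and thus inside the site. A second site 22.8 kb downstream was in an intron of *Zfp113*.

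The remaining helicase subunits had no site at their promoter. *Mcm2* had 1 site within 50 kb, 25.1 kb downstream, whose midpoint was 1403 bp from the TSS of *Podxl2* and in an intron of that gene. For *Mcm3* the nearest site was 592 kb away, and for *Mcm5* it was 1756083 bp away, and 94.7% of protein-coding genes had a site at that distance or closer. The subunits of one ring thus ranged from a site over the TSS to the most distant site of all 39 genes.

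*Mcm10* (ENSMUSG00000026669.14) is a minus-strand gene of chromosome 2 (4989714 to 5012791). Its site was the narrowest of the 5, at 800 bp from 5012312 to 5013111, and its midpoint was 80 bp downstream of the TSS in a UTR. In width it was at the 5.1 percentile of the 1344 sites within 2 kb of a protein-coding TSS, whose median was 2221 bp. A second site 26.8 kb upstream was in an intron of *Optn*. Of the other genes that switch the helicase on, *Cdc45* and the GINS genes *Gins1*, *Gins3* and *Gins4* had none within 50 kb, with the nearest sites 143 to 312 kb away.

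*Pole* (ENSMUSG00000007080.14) is a plus-strand gene of chromosome 5 (110286306 to 110337474). Its site was the widest of the 5, at 3220 bp from 110284632 to 110287851, and its midpoint was 65 bp upstream of the TSS. It covered the TSS of *Pxmp2* as well, which encodes a peroxisomal membrane protein and starts on the other strand at position -120 bp. The midpoint was 55 bp from the start of *Pxmp2*, in the stretch between both genes, so the list does not assign the site to one of them.

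**Figure D1:**
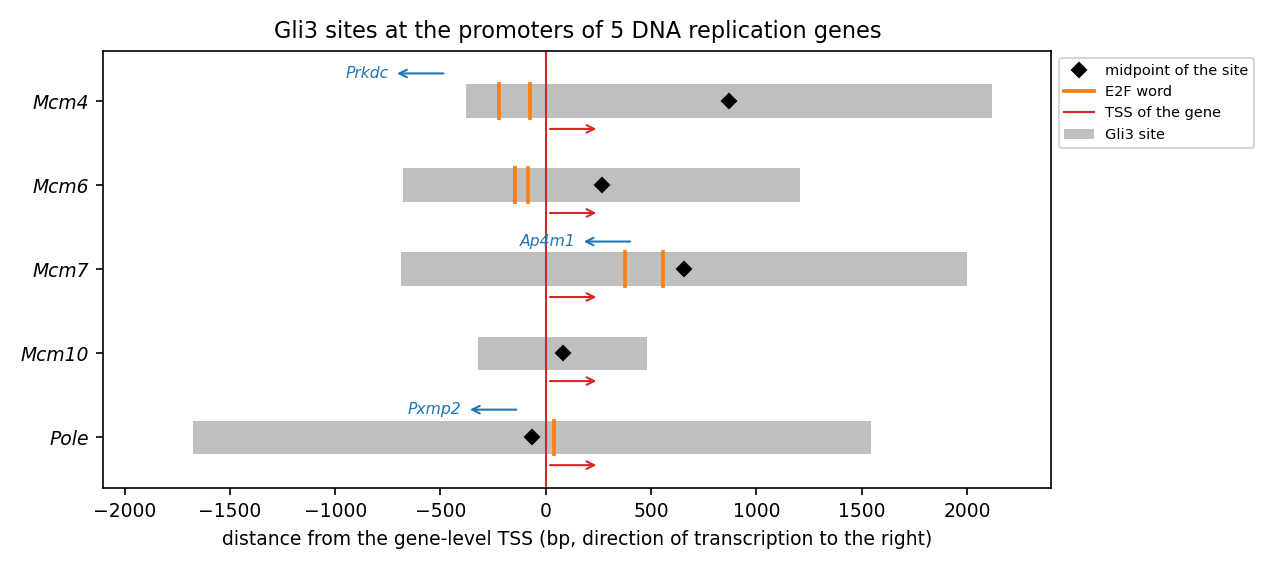
Gli3 sites at the promoters of the 5 DNA replication genes with a site within 2 kb, against the distance from the gene-level TSS in bp, with transcription to the right. Gray bars are sites, diamonds their midpoints, orange lines E2F words inside the site, and blue arrows starts on the other strand. All 5 sites cover the TSS, and the midpoint lies downstream at all but *Pole*. Of all protein-coding genes, 6.21% had a site over the TSS and 6.88% a midpoint within 2 kb.

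All 5 sites covered the TSS of the gene they were assigned to. This was common among all genes, since 6.21% of protein-coding genes had a site over the TSS and 6.88% a midpoint within 2 kb. Of the 5 midpoints, 4 were downstream of the TSS. Among the 1508 protein-coding genes with a site within 2 kb, the nearest midpoint was downstream in 62.9%. The GC content of the 5 sites ran from 49.4% at *Mcm4* to 53.1% at *Mcm7*, compared with a median of 55.5% for all 1344 sites near protein-coding starts. None of them held an exact GLI core (GACCACCCA on either strand), which was present in 8.26% of those 1344 sites. With 1 mismatch allowed, there were 2 matches at *Mcm10*, 1 each at *Mcm7* and *Pole*, and 0 at *Mcm4* and *Mcm6*. Such loose matches were not counted over the 1344 sites, so whether these numbers are high or low is not known.

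Other polymerase genes had sites at a greater distance, most of them at neighboring genes. *Pold1*, the catalytic subunit of the lagging-strand polymerase, was the nearest to the 2 kb limit among the members outside it, with a site 4685 bp upstream. The midpoint of that site was 417 bp from the TSS of *Nr1h2*, a nuclear receptor gene, which the site covered. *Pola2*, a subunit of the polymerase that starts each new strand, had a site 10.2 kb upstream in an intron of *Slc22a20* and another 39.7 kb downstream over the TSS of *Cdc42ep2*. The first of these was the only site beyond 2 kb for which the nearest protein-coding TSS was that of the member itself. *Pole2*, *Pold2*, *Prim1*, *Prim2* and *Pola1* had no site within 50 kb, with distances from 69.1 kb at *Pole2* to 909 kb at *Pola1*.

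The genes that load the helicase were the largest group without a promoter site. None of the 9 licensing genes had a site within 2 kb, and 1 had a site within 50 kb. This was *Cdc6*, a loading factor, with sites 33.8 and 44.1 kb downstream that were both in introns of *Rara*, the gene of a retinoic acid receptor. *Cdt1*, its partner in loading, had its nearest site 72.8 kb downstream, and *Gmnn*, which encodes the Cdt1 inhibitor geminin, had it 175 kb upstream. For *Orc1* to *Orc6*, the subunits of the origin recognition complex, the nearest sites were 193 to 502 kb away. With 9 genes, a count of 0 has a Wilson interval that reaches 29.9%, which includes the share of all genes.

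The clamp and its loader were also without promoter sites. *Pcna*, the sliding clamp and a common marker of dividing cells, had its nearest site 132 kb upstream. Of the loader genes, *Rfc2* had a site 49.3 kb upstream in an intron of *Clip2*, just inside the 50 kb limit, and *Rfc1*, *Rfc3*, *Rfc4* and *Rfc5* had nearest sites 157 to 985 kb away. *Rpa3*, a subunit of the complex that coats single-stranded DNA, was just inside the limit as well, with a site 49.6 kb downstream over the TSS of *Mios*. *Rpa1*, *Rpa2*, the flap endonuclease gene *Fen1* and the ligase gene *Lig1* had nearest sites 103 to 253 kb away.

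**Figure D2:**
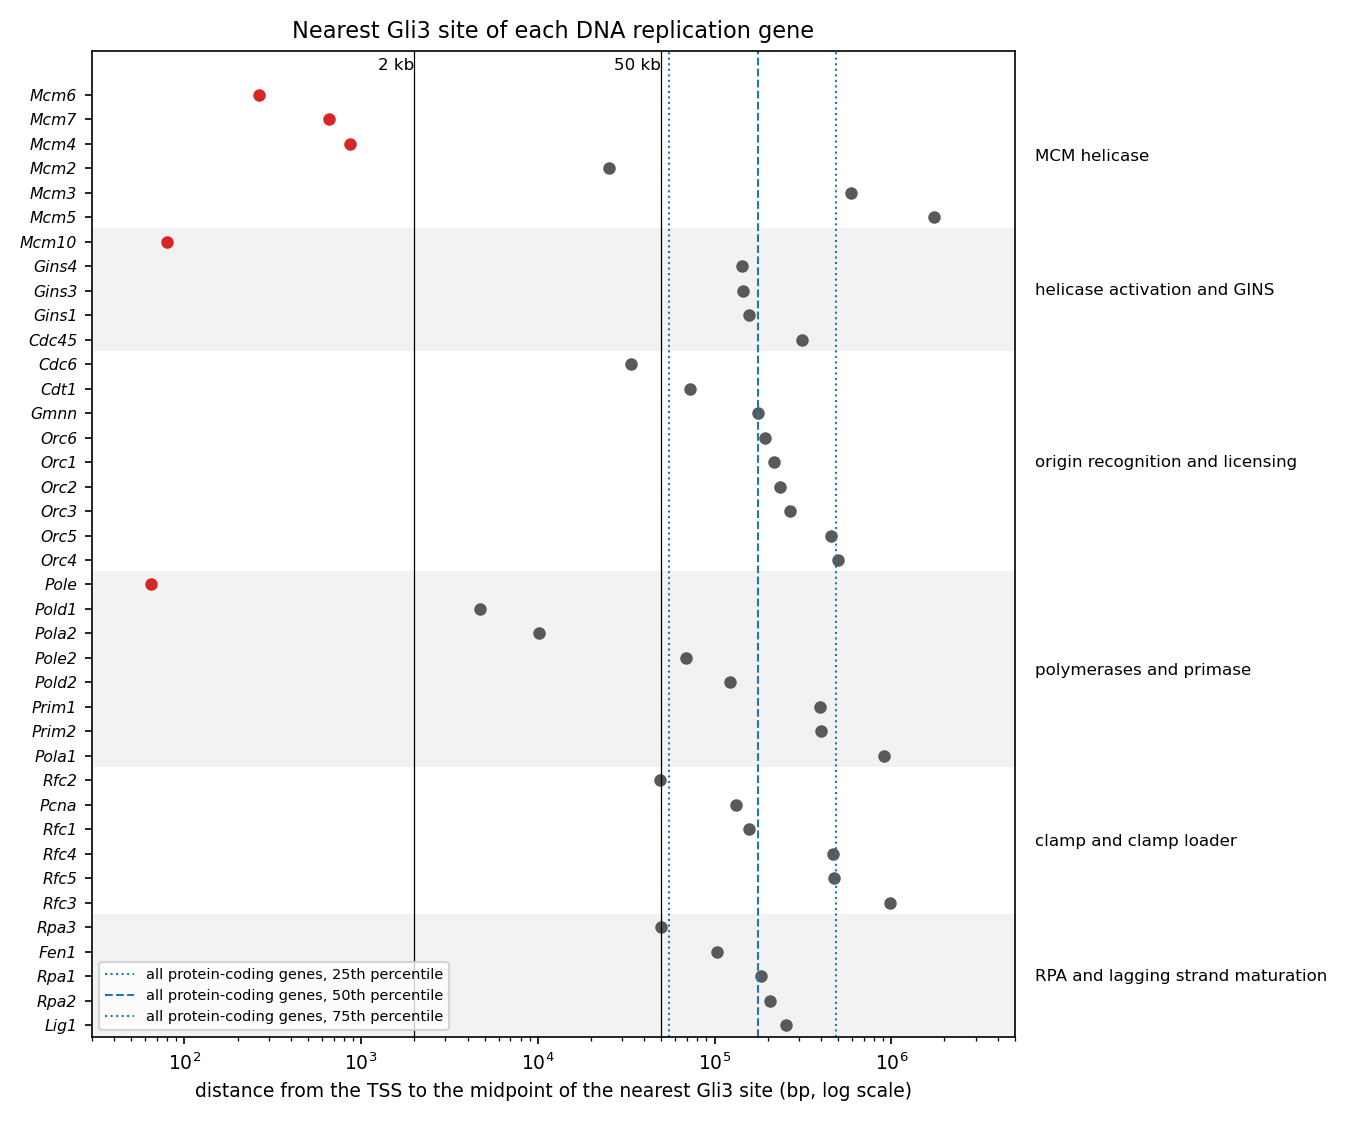
Distance in bp, on a log scale, from the TSS of each of the 39 genes to the midpoint of the nearest Gli3 site, grouped by role. Red points are within 2 kb, and blue lines are the quartiles of all protein-coding genes. Most genes sit around the median of all genes, and 5 stand apart below 1 kb.

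Over all 39 genes the median distance to the nearest site was 157 kb, with quartiles of 49.5 and 353 kb. For all protein-coding genes the median was 177 kb, with quartiles of 55.4 and 487 kb. The nearest site was more than 100 kb away for 26 of the 39 genes and more than 500 kb away for 5, which were *Mcm5*, *Rfc3*, *Pola1*, *Mcm3* and *Orc4*. Such distances were common among all genes. Within 100 kb, 33.3% of members and 36.5% of all protein-coding genes had a site. At the distance of *Orc4* (502 kb) or closer, 75.6% of all protein-coding genes had one. Together the members had 17 sites within 50 kb, all different. Of the 12 beyond 2 kb, all had their midpoint in an intron of another gene, and 4 were within 2 kb of another protein-coding TSS. The share of intronic midpoints among all sites was not counted, so the first count has nothing to be compared with. A single one of the 17 held a GLI core, the site of *Podxl2* near *Mcm2*, compared with 12.2% of all 4099 sites. The core is shown in capitals with 10 bases on either side, read on the minus strand of chr6:88873468-88873476.
GLI core near Mcm2: catctacacaGACCACCCAgatctttgca

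Base composition differed between the members and other genes, and so did the share of genes with a site between promoters of different base composition. A promoter was called CpG-rich when 500 bases on either side of the TSS had a GC content of at least 55% and a ratio of observed to expected CpG of at least 0.75. This held for 18 of the 39 members (46.2%, interval 31.6 to 61.4%) and for 24.7% of all protein-coding genes. Among CpG-rich promoters of all genes, 14.2% had a site within 2 kb, and among the 18 members with such a promoter there were 3 (16.7%, interval 5.84 to 39.2%), *Mcm4*, *Mcm6* and *Pole*. Without a CpG-rich promoter, 4.5% of all genes and 2 of 21 members (9.52%, interval 2.65 to 28.9%) had a site, the latter being *Mcm7* and *Mcm10*. Within 50 kb, 5 of the 18 CpG-rich members (27.8%) had a site, compared with 31.3% of all genes with such promoters. In both classes the interval at 2 kb includes the share of all genes of that class.

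Several members have the start of another gene close by on the other strand, either upstream of their own TSS or inside the member. An opposite-strand protein-coding TSS lay within 1 kb of the TSS of 12 members (30.8%), against 10.8% of all protein-coding genes. Of these 12, *Mcm4*, *Mcm7* and *Pole* had a site within 2 kb (25%, interval 8.89 to 53.2%), compared with 12.2% of all genes with such a neighbor. The other 9, among them *Orc1* with *Prpf38a* and *Fen1* with *Tmem258*, had none.

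The promoters were then searched for short words, from 250 bases before to 50 bases after the TSS, on both strands. An E2F word was present in 13 of the 39 members (33.3%, interval 20.6 to 49%) and in 2.79% of all protein-coding promoters. *Mcm5* and *Mcm6* had 3 each, and *Mcm3*, *Mcm4* and *Rfc3* had 2 each. The others with a word were *Cdc6*, *Cdt1*, *Gmnn*, *Orc1*, *Orc3*, *Pola1*, *Pole* and *Pole2*. The share varied among related lists. It was 7 of 18 firing and fork factors (38.9%, interval 20.3 to 61.4%) and 7 of 13 genes for E2F, DP and pocket proteins (53.8%, interval 29.1 to 76.8%). Lower shares were found in 16 other replisome subunits (12.5%), 12 nucleotide supply genes (8.33%) and 12 genes of chromatin assembly (8.33%). A CCAAT box was in 66.7% of members and 39% of all promoters, and an SP box in 69.2% and 43%. The cell-cycle homology region (CHR, TTTGAA or TTCGAA), a word of genes expressed in G2 and mitosis, was in 12.8% of members and 18% of all promoters. No member promoter held a GLI core in this window, and it was present in 0.219% of all promoters. A match describes the letters in the window and does not show that a factor binds there.

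**Figure D3:**
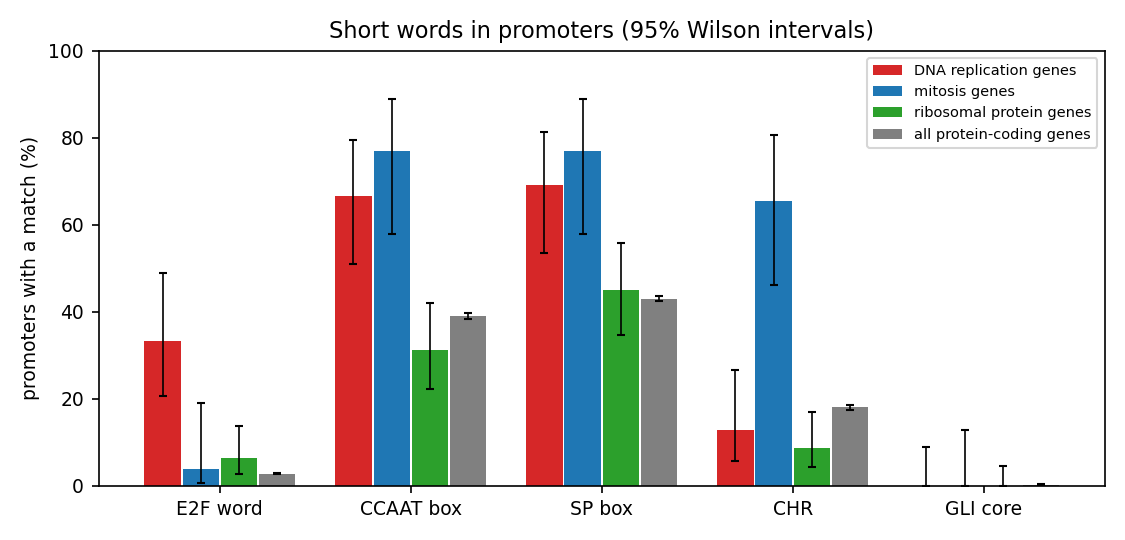
Percent of promoters, 250 bases before to 50 after the TSS, that hold each short word, in the 39 DNA replication genes, 26 mitosis genes, 80 ribosomal protein genes and all protein-coding genes. Bars are shares and lines 95% Wilson intervals. Of the 4 sets plotted, the E2F word is most frequent in the replication genes (33.3%) and the CHR in the mitosis genes (65.4%).

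E2F words also lay inside the Gli3 sites of the members. Of the 5 promoter sites, 4 held at least 1 E2F word, compared with 234 of the 1344 sites near protein-coding starts (17.4%). All 5 cover a TSS of the list, whose promoters held the word more often than all promoters did (33.3% against 2.79%). The comparison therefore cannot separate the sites from the promoters they cover. The site of *Mcm6* held 3 words, those of *Mcm4* and *Mcm7* 2 each and that of *Pole* 1, while *Mcm10* had none. At *Mcm4* and *Mcm6* they were the words printed above, which start at positions -224 and -78 bp in *Mcm4* and at -151, -147 and -88 bp in *Mcm6*. The words at -151 and -147 bp overlap on opposite strands. At *Pole* the word started 37 bp downstream of the TSS. At *Mcm7* they started 374 and 555 bp downstream of the gene-level TSS, near the other annotated starts. The words of *Mcm7* are given in capitals with 10 bases on either side, on the strand of the gene.
Mcm7, 374 bp, chr5:138172041-138172048: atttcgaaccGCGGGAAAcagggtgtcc
Mcm7, 555 bp, chr5:138171860-138171867: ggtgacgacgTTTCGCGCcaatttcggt

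An E2F word in the promoter did not go with a site at every member. Of the 13 members with a word, 3 had a site within 2 kb (23.1%, interval 8.18 to 50.3%), and of the 26 without one, 2 did (7.69%, interval 2.14 to 24.1%). Among all genes with an E2F word, 11.6% had a site, and among all genes without one 6.75%. When CpG-rich promoters of all genes alone were counted, the shares were 15.5% with a word and 14.1% without. Among the 18 CpG-rich members, 3 of the 9 with a word had a site (33.3%, interval 12.1 to 64.6%), and 0 of the 9 without one. That interval includes 15.5%, and the difference between members was not tested. *Mcm5*, with 3 words and 3 CCAAT boxes in its promoter, had the farthest site of all members, while *Mcm6*, with 3 words and 2 CCAAT boxes, had a site over the TSS.

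To see whether related genes shared the pattern, 71 further genes of DNA replication and its control were counted in 5 lists, none of them members. Within 2 kb, 13 of the 71 had a site (18.3%, interval 11 to 28.8%), and within 50 kb 28 did (39.4%, interval 28.9 to 51.1%). For all protein-coding genes the shares were 6.88% and 23.4%, which lie below both intervals, unlike for the 39 members. Their promoters were CpG-rich in 66.2% of cases, and of the 47 CpG-rich ones 9 had a site within 2 kb (19.1%, interval 10.4 to 32.5%). This interval includes the 14.2% of all CpG-rich promoters. The rest of the 13 genes with a site were among the 24 without such a promoter. For all genes without one the share was 4.5%, and no interval was computed for those 24.

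The list with the highest share was that of E2F factors, their DP partners and the pocket proteins that restrain them. Compared with 6.88% of all protein-coding genes, 5 of its 13 genes had a site within 2 kb (38.5%, interval 17.7 to 64.5%). These were *E2f1*, *E2f3* and *E2f5*, and the pocket protein genes *Rb1* and *Rbl1*. *E2f1*, an activator of S phase genes, had 2 sites within 2 kb and 4 within 50 kb. One of its sites covered the TSS with the midpoint 621 bp upstream, and the other had its midpoint 914 bp downstream. *E2f3*, a second activator, had a site of 3504 bp with the midpoint 903 bp downstream, and *E2f5*, a repressor of the family, had one of 2187 bp with the midpoint 640 bp downstream. *Rb1*, the retinoblastoma gene, had a site of 948 bp centered 709 bp upstream that did not reach the TSS. *Rbl1*, which encodes its relative p107, had a site of 3185 bp over the TSS. The promoters of 11 of the 13 genes were CpG-rich, and 4 of those 11 had a site (36.4%, interval 15.2 to 64.6%). The 14.2% of all CpG-rich promoters lies just below this interval, and the list is small and was not tested. No site within 2 kb of these 5 genes held a GLI core. *E2f2* had a site 27.6 kb away, and the other 7 genes had none within 50 kb.

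Among 16 other replisome subunits, 4 had a site within 2 kb (25%, interval 10.2 to 49.5%), compared with 6.88% of all protein-coding genes. The 4 were *Pold4* and *Pole3*, small subunits of the delta and epsilon polymerases, *Chtf18* and *Rnaseh2b*. *Chtf18* is part of an alternative clamp loader, and *Rnaseh2b* is a subunit of the enzyme that removes ribonucleotides from DNA. The site of *Chtf18* held a GLI core. Another gene starts on the other strand at position -251 bp of *Chtf18* (*Rpusd1*), -301 bp of *Pole3* (*4933430I17Rik*) and 458 bp of *Rnaseh2b* (*Dleu7*). At *Chtf18* and *Rnaseh2b* the midpoint of the site, at positions -1092 and 296 bp, was closer to that other start. *Gins2*, the GINS subunit that is not among the 39, had its nearest site 30.8 kb away. Of 18 firing and fork factors, 1 had a site within 2 kb (5.56%, interval 0.988 to 25.8%), *Ccna2*, which encodes the S phase cyclin A2. None of 12 nucleotide supply genes, among them *Rrm1*, *Rrm2* and *Tyms*, had one, with an interval that reaches 24.2%. The intervals of the firing and nucleotide supply lists include the 6.88% of all genes. That of the other replisome subunits lies above it and includes the 14.2% of all CpG-rich promoters, but only 8 of the 16 had such a promoter. Of the 4 with a site, *Pole3* had a CpG-rich promoter, and *Chtf18*, *Pold4* and *Rnaseh2b* did not. Without such a promoter, 4.5% of all genes had a site.

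Mitosis genes and ribosomal protein genes, which dividing cells also use, were set beside the members. Of 26 mitosis genes, 1 had a site within 2 kb, *Nuf2*, a kinetochore gene (3.85%, interval 0.682 to 18.9%), and 7 had one within 50 kb (26.9%). Of 80 ribosomal protein genes, 5 had a site within 2 kb (6.25%, interval 2.7 to 13.8%) and 23 within 50 kb (28.8%). Their promoters were CpG-rich in 42.3% and 50% of cases, close to the 46.2% of the replication genes. The intervals of the 3 sets overlap at both distances.

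**Figure D4:**
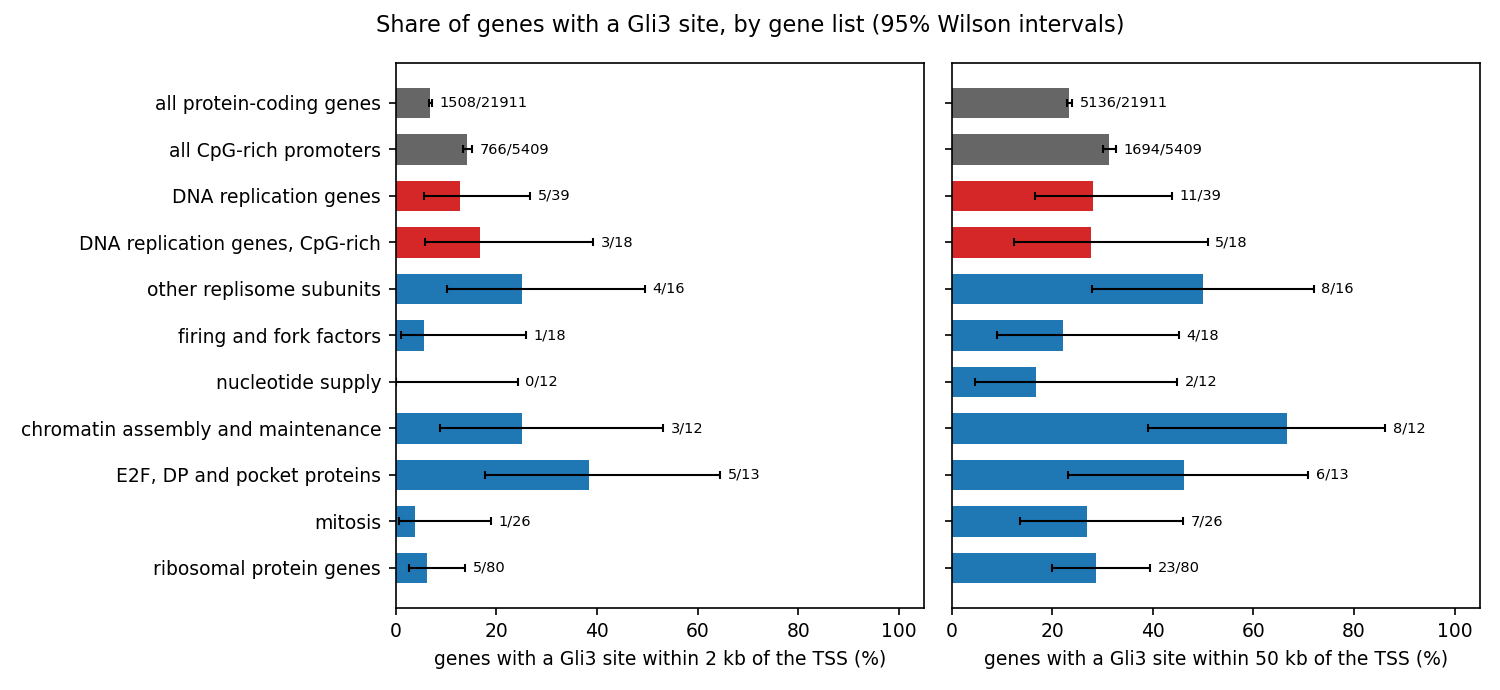
Percent of genes with a Gli3 site whose midpoint is within 2 kb (left) or 50 kb (right) of the TSS, in all protein-coding genes, the DNA replication genes and 7 other lists, with counts beside the bars and 95% Wilson intervals as lines. The intervals of the replication genes include the shares of all genes (6.88% and 23.4%), while those of 3 lists lie above 6.88% at 2 kb (E2F, DP and pocket proteins, other replisome subunits, and chromatin assembly). At 50 kb those of the latter 2 lie above 23.4%, and all lists were chosen with earlier results known.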

How the data were processed

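ChIP-seq was performed by the authors on E15 wild-type mouse cortex with a Gli3 antibody (3 ChIP and 3 input libraries). Per the file headers, reads were used as 85 bases from each end, filtered for repeats and mapped with bowtie2 to mm10, and the deposited values are peak positions of the optimal set chosen by irreproducible discovery rate (IDR), pooled over replicates. The submitters' processing notes also name SAMtools and MACS2. Versions and thresholds are not given in the sources used here.

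Starts were converted to 1-based coordinates. TSSs came from GENCODE M21 and sequence from GRCm38, the assembly of mm10. Protein-coding genes with the same symbol were counted once. Shares are given with 95% Wilson intervals. The members and lists were chosen with earlier results of these data known, so no test was made of any list. The opposite-strand distance of 1 kb and the comparison by promoter class were set after values had been seen. Text gives every member with a site within 50 kb, the 5 with the farthest sites, genes of the other lists with a site within 2 kb, genes sharing a member's site, and *Gli1* and *Ptch1* as a check. Further genes, such as members with nearest sites between these limits and list members without sites, were named after their values were seen. Counting of sites and words was tested on simulated data. Python 3.11.15, numpy 2.4.6, pandas 2.3.3 and scipy 1.17.1 were used.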

Additional observations from a re-analysis of the deposited data

How the results depend on the processing

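The count of 5 members with a site within 2 kb held the same genes with the TSS of any transcript, the TSSs of protein-coding transcripts, any overlap, sites under 4 kb, joined sites, 1 kb windows and sites that cover the TSS. It was 4 with sites of at least 1 kb, where *Mcm10* was lost, and 6 with 5 kb windows, where *Pold1* was gained. With 2 kb upstream only it fell to 1 of 39 (2.56%, against 2.6% of all protein-coding genes), and with sites that hold an exact GLI core it was 0 (against 0.584%). The count of 11 within 50 kb was 1 with GLI core sites (2.56% against 3.35%), 7 with 20 kb windows (17.9% against 13.4%), 13 with 100 kb windows (33.3% against 36.5%), 4 when a site counted only for its nearest protein-coding TSS (10.3% against 10.8%), and 6 when sites within 2 kb of any protein-coding TSS were left out (15.4% against 10.5%). Under the other alternatives it was 10 to 12, where *Rfc2* was lost with protein-coding transcripts and *Pole2* gained with any transcript. Members with an E2F word rose from 13 to 20 with 500 bases on either side (51.3% against 7.14% of all genes), and CpG-rich members from 18 (46.2% against 24.7%) to 26 (66.7% against 32.5%) with 250 bases on either side. The list has no scores, so no stricter peak threshold could be set, and no library could be left out. No paired analysis was possible because the libraries were joined in 1 list.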

Other observations

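Genes that rebuild chromatin behind the fork had sites near them in 8 of 12 cases within 50 kb (66.7%, Wilson interval 39.1 to 86.2%), and in 3 of 12 within 2 kb (25%, interval 8.89 to 53.2%). For all protein-coding genes the shares were 23.4% and 6.88%, and for those with CpG-rich promoters, which 66.7% of the list had, they were 31.3% and 14.2%. The sites within 2 kb were at *Rbbp4* and *Rbbp7*, which encode histone chaperones shared by several chromatin complexes, and at *Ssrp1*, a subunit of the histone chaperone FACT. The site at *Ssrp1* held both a GLI core and an E2F word. *P2rx3* starts on the other strand 228 bp inside *Ssrp1*, and *Zbtb8os* at position -325 bp of *Rbbp4*. The midpoint of the *Rbbp4* site, at position -259 bp, was closer to the start of *Zbtb8os*. *Dnmt1*, the maintenance DNA methyltransferase, had its nearest site 7082 bp downstream of the TSS, and *Uhrf1*, its partner at the fork, had it 22.8 kb downstream. *Chaf1a* and *Chaf1b*, subunits of the chromatin assembly factor, had sites 33 and 28.6 kb away. The list was small and chosen with earlier results known, and it was not tested.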
